A study of Mus musculus with 24 samples.

Results

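Brains of Smc6 mutants, male homozygotes for the mutated gene, were compared with brains of wildtype mice, all aged 19 weeks and of the mixed strain background C57BL/6J-129ola-Fvb. They were chosen by their titles, as the 4 brain arrays of Smc6 mutants and the 4 brain arrays of wildtype controls, and made up 8 of the 24 arrays of the series. Each array held the RNA of 1 animal, and the mouse identifiers of the 8 brains differed. The nature of the Smc6 mutation, the brain regions taken and the slide of each array are not given in the sources used here. Biotin-labelled copies of total RNA had been hybridised to Illumina MouseRef-8 bead arrays, and the comparison asks how the brain transcriptome of the mutants differed from that of wildtype mice. A probe entered when 4 or more of these 8 arrays gave it a detection p (the chance that background alone gives so high a signal) below 0.05. In all, 14027 of 25697 probes were kept, of which 13224 carried a gene symbol, for 9745 genes.

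SMC6 pairs with SMC5 in a ring-shaped complex related to cohesin and condensin, which acts in homologous recombination and at stalled replication forks and carries a SUMO ligase subunit. Most cells of the adult brain do not divide. The brain mixes excitatory and inhibitory neurons of many regions with myelin-forming oligodendrocytes, astrocytes, microglia, vessel cells and the secretory epithelium of the choroid plexus. In whole-tissue RNA, fewer cells of a type and less RNA per cell cannot be told apart, and the regional make-up of a dissected piece enters every cell class value below.

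Etv1, Sh3gl2 and Tsc22d3 each had a probe that rose in mutant brain, and the stretch around the outermost start of each gene, from 250 bases before to 50 after it, is shown because the main result rests on these genes. The sequences are RefSeq's, of assembly GRCm38.p6, written 5′ to 3′, with capitals marking a motif match. Mbp, the fourth such gene, is named only.
Etv1, chr12:38779832-38780131, plus strand: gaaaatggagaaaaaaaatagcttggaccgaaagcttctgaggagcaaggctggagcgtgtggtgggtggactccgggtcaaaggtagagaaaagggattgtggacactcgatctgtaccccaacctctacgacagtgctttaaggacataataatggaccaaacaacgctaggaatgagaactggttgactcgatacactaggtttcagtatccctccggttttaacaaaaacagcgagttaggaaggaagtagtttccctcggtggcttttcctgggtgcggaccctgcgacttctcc
Sh3gl2, chr4:85205206-85205505, plus strand: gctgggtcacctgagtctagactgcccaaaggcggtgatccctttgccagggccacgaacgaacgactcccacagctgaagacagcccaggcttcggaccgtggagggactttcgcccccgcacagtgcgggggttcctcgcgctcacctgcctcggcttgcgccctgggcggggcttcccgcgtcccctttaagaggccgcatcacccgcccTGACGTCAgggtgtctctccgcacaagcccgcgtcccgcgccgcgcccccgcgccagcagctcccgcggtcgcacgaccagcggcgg
Tsc22d3, chrX:140600473-140600772, minus strand: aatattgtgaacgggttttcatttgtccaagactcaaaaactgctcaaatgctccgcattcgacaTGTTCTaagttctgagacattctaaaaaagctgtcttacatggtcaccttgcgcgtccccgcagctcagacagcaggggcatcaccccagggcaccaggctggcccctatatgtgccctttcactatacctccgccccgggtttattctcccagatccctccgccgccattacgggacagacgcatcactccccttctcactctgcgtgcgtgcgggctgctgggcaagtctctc
The 4 motifs searched on both strands were the palindromic glucocorticoid response element, its half-site AGAACA, the heat shock element GAANNTTC and the cAMP response element TGACGTCA. The half-site overlaps the full glucocorticoid element. In Sh3gl2 the window held 1 cAMP response element, a motif found in 1.79% of all 32851 windows of this length. The Tsc22d3 window held 1 half-site, which 19.0% of windows hold. The Etv1 window held a match to none of the 4, nor did the further Etv1 window and the 2 further Tsc22d3 windows, which are not shown. The full glucocorticoid element occurred in 0.00913% of windows and the heat shock element in 7.86%.

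In mutant brain 4 probes rose and 0 fell at an adjusted p under 0.05 by limma, with Benjamini-Hochberg adjustment over the 14027 probes, a share of 0.0285%. They belonged to Etv1, an ETS-family transcription factor, Mbp, a structural protein of myelin, Sh3gl2, the endophilin A1 of synaptic vesicle retrieval, and Tsc22d3, a glucocorticoid-induced leucine zipper protein. At an unadjusted p under 0.05 there were 1660 probes, or 11.8% of those tested, with 894 higher (6.37%) and 766 lower (5.46%). The 95% interval stayed inside 1.5-fold up or down for 95.6% of probes, and 21 probes were over 1.5-fold higher and 11 over 1.5-fold lower by their estimate. Read by the probe with the highest mean, 0 of 9745 genes passed in this fit and 967 (9.92%) had an unadjusted p under 0.05. The 4 probes that rose are not among these, since the second Etv1 probe and brighter probes of Mbp, Sh3gl2 and Tsc22d3 stood for their genes.

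Etv1 marks layer 5 projection neurons of the cortex, among other neurons. Its probe ILMN_2643915 had normalized log2 intensities of 7.25, 6.93, 7.08 and 7.00 in the 4 mutants, against 6.15, 6.44, 6.37 and 6.23 in the 4 wildtype brains. Every mutant lay above every wildtype animal. The difference was 0.77 ± 0.0938 (SE) on the log2 scale, a 1.70-fold higher signal with an adjusted p of 0.0442. The second Etv1 probe, ILMN_2649709, read 7.41, 7.12, 7.14 and 6.99 in mutants and 6.26, 6.56, 6.60 and 6.53 in wildtype brains. Its groups did not overlap either, and its difference of 0.68 had an adjusted p of 0.0668. Etv1 lies on chromosome 12, as does Smc6, but is not among the neighbours of Smc6 described below. Of 332 measured genes on this chromosome 9.94% had an unadjusted p under 0.05, against 9.92% of all genes. That share describes the whole chromosome. Whether lying on the same chromosome as Smc6 had a part in the Etv1 difference was not tested.

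Sh3gl2 gave different readings by probe. Probe ILMN_2701695 had levels of 8.61, 8.33, 8.60 and 8.45 in mutants, against 7.92, 7.82, 7.88 and 7.94 in wildtype brains, and rose by 0.61 ± 0.0813 (adjusted p = 0.0442). Probe ILMN_2701701 differed by nearly as much, 0.60, with an adjusted p of 0.0668 and no overlap of the groups. The brightest probe of the gene, ILMN_1251416, differed by 0.01, with mutants between 13.09 and 13.15 and wildtype brains between 13.02 and 13.19.

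The Tsc22d3 probe ILMN_2701664 stood at 7.71, 7.67, 7.72 and 7.18 in mutants, against 6.72, 6.74, 6.42 and 6.62 in wildtype brains. Mutant 4 was the lowest of its group and still above every wildtype animal. The rise of 0.95 ± 0.126 was the largest of the 4 (adjusted p = 0.0442). Its brighter probe, ILMN_3150811, differed by 0.26 in the same direction, with levels of 11.51, 11.48, 11.55 and 11.47 in mutants and 11.42, 11.14, 11.06 and 11.35 in wildtype brains. That difference had an adjusted p of 0.28.

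Mbp probe ILMN_3081854 read 10.60, 10.64, 10.74 and 10.62 in mutants and 10.11, 10.19, 10.00 and 10.10 in wildtype brains, a rise of 0.55 ± 0.0717 (adjusted p = 0.0442). The other Mbp probes did not follow it. The brightest, ILMN_2737200, differed by 0.01. It stood near the top of the quantile-normalized scale, where 14.03, 14.06 and 14.14 each recurred in both groups, so differences are read coarsely there. ILMN_3011353 was 0.19 lower in mutants, at 8.56 to 8.75 against 8.81 to 8.86, with no overlap between groups. The transcripts that these probes distinguish are not given in the sources used here.

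**Figure D1:**
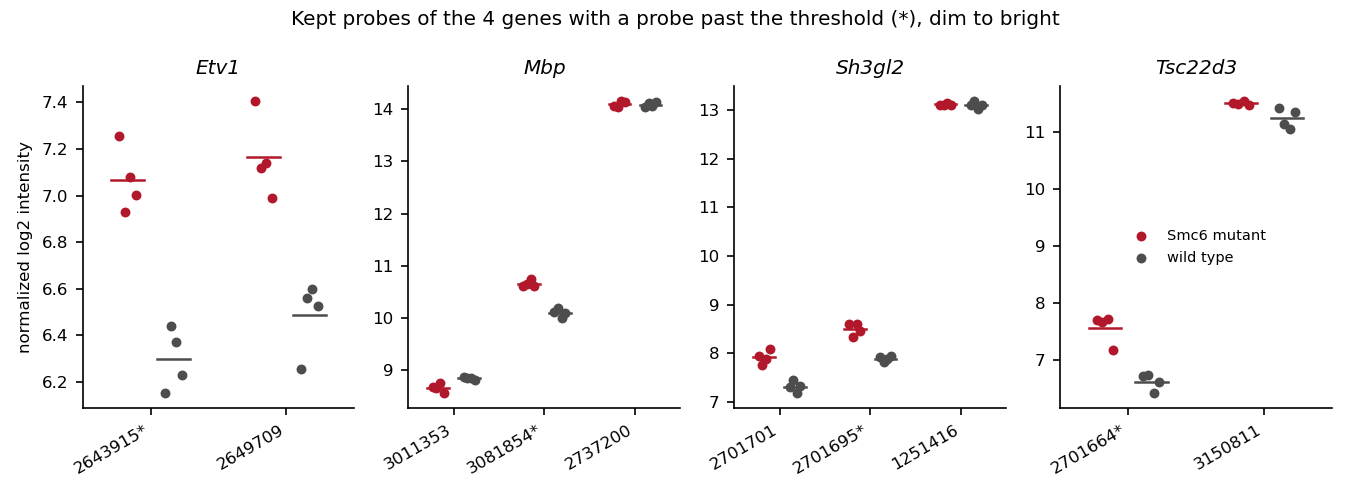
Normalized log2 intensity (y axis) of every kept probe of Etv1, Mbp, Sh3gl2 and Tsc22d3 (x axis, probe number, dim to bright) in 4 Smc6 mutants (red) and 4 wildtype brains (grey), with group means as bars. The 4 probes past the threshold (asterisk) show no overlap of the groups, while the brightest probes of Mbp and Sh3gl2 each differ by 0.01.

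The calls were few and changed with the animals included. Leaving out mutant 1, mutant 3, wildtype animal 3 or wildtype animal 4 left 0 probes past the threshold. Leaving out any other animal gave 1 to 3, and these were not all among the 4. Without wildtype animal 1 they were 2 Twistnb probes, higher in mutants, and the Slc38a5 probe, lower in mutants, with 0 of the 4. The Etv1 probe passed in 2 of these 8 fits, the Sh3gl2 and Tsc22d3 probes in 1 each and the Mbp probe in 0.

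The 15 probes with the smallest p among those higher in mutants came from 12 genes, with differences of 0.44 to 0.95 and adjusted p of 0.0442 to 0.0668. In all 15, as in the 15 lower probes with the smallest p, every mutant lay on one side of every wildtype animal, as the choice by p makes likely. Over all probes tested 6.66% did so (3.51% with mutants above, 3.15% below). Rbbp7, a histone-binding subunit of chromatin complexes, had 3 probes at 0.58, 0.60 and 0.58 and another at 0.00. Probe ILMN_2691192 of Rbbp7 read 8.64, 8.57, 8.50 and 8.54 in mutants and 7.98, 8.23, 7.92 and 7.78 in wildtype brains. Hspa8, the constitutive HSC70 chaperone, differed by 0.59 on one probe and 0.07 on its brighter one. Asns, which makes asparagine, differed by 0.66 on its dimmest probe and by -0.19 on its brightest. Arpc5, a subunit of the actin-branching ARP2/3 complex, differed by 0.47 on one probe and by 0.12 on the brighter one. Tsc22d1, of the same family as Tsc22d3, differed by 0.56 on one probe and 0.33 on another. Tmed4, a cargo receptor of early secretion, differed by 0.50, 0.49, 0.35 and 0.08 over 4 probes. The ubiquitin ligase gene Rnf220 differed by 0.44, and Rnf114 by 0.49 on one probe and 0.07 on another.

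The 15 lower probes came from 15 genes, with differences between -1.06 and -0.36 and adjusted p of 0.081 to 0.117, so none passed. Trappc12, which acts in vesicle tethering, had levels of 5.54, 5.72, 5.03 and 5.85 in mutants, against 6.10, 6.77, 6.56 and 6.96 in wildtype brains. Hes5, a transcriptional repressor downstream of Notch, was lower on both of its probes. Probe ILMN_2624153 of Hes5 read 5.84, 5.69, 5.34 and 5.77 in mutants and 6.33, 6.69, 6.28 and 6.13 in wildtype brains, a difference of -0.70. Slc38a5, a glutamine transporter, differed by -0.62 and Def6, a guanine nucleotide exchange factor, by -0.54. The potassium channel gene Kcnq5 differed by -0.50, the adhesion molecule gene Chl1 by -0.48, the microtubule end-binding gene Mapre3 by -0.39 and the serine racemase gene Srr by -0.36. The others were Trps1 (-0.50), Gpat4 (-0.47, with its brighter probe at -0.05), Pgm5 (-0.43, the other at -0.08), Wwp2 (-0.40, the brighter at -0.11), Cdx1 (-0.39), Slc10a4l (-0.36) and Micall2 (-0.36). Cdx1 and Micall2 were detected in 0 mutants and 4 wildtype brains and Pgm5 in 2 and 4, so these dim probes met the detection rule through the group where they were high, and their differences are no support for a decrease.

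**Figure D2:**
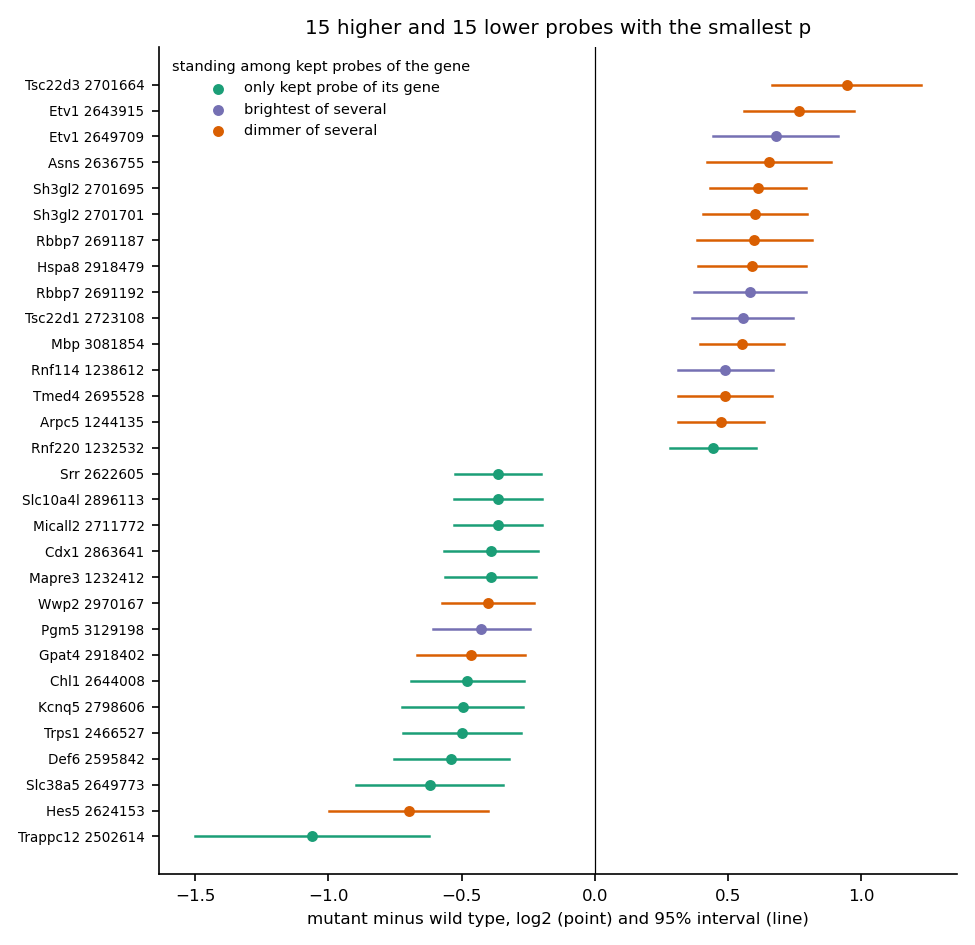
Mutant minus wildtype difference on the log2 scale (x axis, points) with its 95% interval (lines) for the 15 higher and 15 lower probes with the smallest p (y axis), coloured by the standing of the probe among the kept probes of its gene. Of the 15 higher probes 10 were a dimmer probe of a gene with several, against 3 of the 15 lower probes, of which 11 were the only kept probe of their gene.

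Where a probe stood within its gene went with the direction of its difference. Of the 3479 probes that were a dimmer one of a gene with several kept probes, 12.1% were higher at an unadjusted p under 0.05 and 4.74% lower. Of the 2520 brightest probes of these genes, 4.88% were higher and 4.48% lower. Probes that stood alone for their gene had 4.17% higher and 5.95% lower. The excess of higher readings among dimmer probes held at each of 4 levels of brightness, with 9.82% to 15.1% higher, against 2.7% to 7.72% among the other named probes. In each animal, the dimmer probes minus the brightest probe, averaged over 2520 genes, came to -1.630, -1.650, -1.644 and -1.659 in mutants and -1.679, -1.667, -1.683 and -1.667 in wildtype brains. The groups did not overlap, with a difference of 0.028 (two-sided exact permutation p = 0.0286, the smallest that 4 animals against 4 allow). This measure was chosen after the probe values had been seen and restates the excess above on the same arrays, so its p is no further support. Its part in the results above was not tested. Of the 2520 genes 1261 (50%) had all kept probes on one side of 0.

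**Figure D3:**
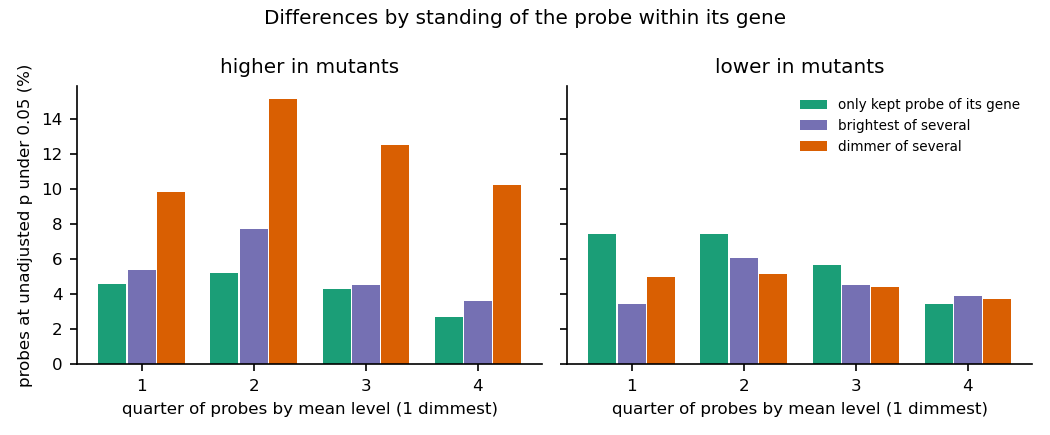
Share of probes at an unadjusted p under 0.05 (y axis, percent) by mean level in 4 equal bins (x axis), for probes higher (left) and lower (right) in mutants, split by the standing of the probe within its gene. Dimmer probes of a gene with several (orange) are higher in mutants in 9.82% to 15.1% of cases and lower in 3.7% to 5.16%.

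The arrays themselves differed in brightness by group. The upper quartile of deposited intensity was 145 to 162 in mutants and 169 to 189 in wildtype brains (means 152 ± 7.24 and 177 ± 8.27, SD, n = 4 each), with no overlap (two-sided exact permutation p = 0.0286, the smallest possible, 0.0572 after adjustment over 4 array measures). With this brightness as a covariate 814 probes in place of 1660 had an unadjusted p under 0.05, and none of the 4 calls passed. Because brightness did not overlap between the groups, fits with this covariate cannot tell brightness and genotype apart. Mutant arrays detected 13784 to 14234 probes and wildtype arrays 13797 to 14075. Correlations between arrays lay between 0.99 and 0.9947, and mutant 1 had the highest median intensity of its group (16.7, against 15.4 to 15.6 in the other mutants). The first principal component, with 23% of the variance, did not separate the groups, with mutants at -11.7 to 13.2 and wildtype brains at -4.69 to 13.8. The second, with 20.9%, placed mutants at 2.87 to 13.1 and wildtype brains at -15 to -3.46. Neuronal genes were bright in all 8 brains, with a mean of 11.03 to 11.11 in mutants and 11.01 to 11.08 in wildtype animals over 18 of 20 general neuronal markers. Of the Y-linked genes, Kdm5d and Uty were detected in all 8 brains and Eif2s3y in 0, and the 2 Xist probes were detected in 2 and 0.

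Smc6 itself was read by 1 probe, at 6.40, 6.48, 6.21 and 6.17 in mutants and 6.26, 6.37, 6.39 and 6.35 in wildtype brains. The groups overlapped and the difference was -0.03 ± 0.0854 (adjusted p = 0.931). The sign of this difference was positive without mutant 3 (0.01) and without mutant 4 (0.02). Of the 9 genes of the SMC5/6 complex list 4 were measured. Smc5, the partner subunit, differed by -0.28, with levels of 6.61, 6.86, 6.35 and 6.74 in mutants and 6.71, 6.84, 7.11 and 7.01 in wildtype brains, and did not pass (adjusted p = 0.402). The subunit genes Nsmce2 and Nsmce1 differed by -0.07 and 0.02. Among up to 100 genes on either side of Smc6 in the reference gene order, 60 were measured and their median difference was 0.04. Of these, 2 were higher (3.33%) and 1 lower (1.67%) at an unadjusted p under 0.05, against 4.35% and 5.57% of all 9745 genes. They were Lpin1 (0.28), Rnaseh1 (0.16) and Trappc12 (-1.06), and Rsad2 followed with 0.24. Trappc12 and Cyria (-0.13) were the 2 with every mutant below every wildtype animal.

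Of 24 cell class lists 23 had measured members, each gene read by its kept probe with the highest mean. No member of any list passed the threshold at this gene level, so the lists are described by their counts and medians. The median over all 9745 genes was -0.01, with 4.35% of genes higher and 5.57% lower at an unadjusted p under 0.05. By sign alone, 4429 genes (45.4%) lay above 0 and 5316 below, and the counts of each list stand beside that share. The groups did not overlap for 5.94% of genes (2.58% with mutants above, 3.37% below). Centring each array on its median in place of quantile normalization moved the median of all kept probes to -0.10, and under it the only cell class or pathway lists with a median above 0 were the olfactory bulb, thalamic, choroid plexus and erythroid lists. Relative to all genes, the medians of the mature oligodendrocyte, hypothalamic, glucocorticoid, heat shock, unfolded protein response, oxidative stress, ribosomal and respiratory chain lists stayed above 0 under all 20 alternatives, the 8 fits without 1 animal included. The smallest of these margins were 0.0052 for the hypothalamic, 0.0116 for the respiratory chain and 0.0162 for the heat shock list. The SMC5/6 complex (-0.0992 to -0.0062) and voltage-gated and potassium channel (-0.0564 to -0.001) lists stayed below 0 under all 20. No gene of the lymphocyte list met the detection rule. Over all 46 lists, 2 had a mean level in every mutant above that in every wildtype brain and 4 below it. The oxidative stress list, among those above, holds Nfe2l2, which met the detection rule through the mutants.

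All 6 measured genes of 9 in the thalamic neuron list lay above 0, with 0 past the adjusted threshold. Their median was 0.21, which stayed between 0.16 and 0.25 above the median of all genes under the 20 alternatives. Gbx2, a homeobox gene of the developing thalamus, read 7.54, 7.57, 7.73 and 7.67 in mutants and 7.35, 7.23, 7.38 and 7.38 in wildtype brains, a difference of 0.29. Prkcd, a protein kinase C gene, differed by 0.27 and Tcf7l2, a Wnt pathway factor, by 0.25, so that 3 of 6 had an unadjusted p under 0.05. Ntng1 differed by 0.18, Tnnt1 by 0.12 and Slc17a6, the vesicular glutamate transporter of subcortical neurons and the brightest member, by 0.11. The mean of the list was 9.38, 9.37, 9.36 and 9.31 in mutants, against 9.16, 9.16, 9.21 and 9.08 in wildtype brains. Its groups did not overlap.

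Choroid plexus genes followed the same direction. Of 17 measured genes 15 lay above 0 and the median was 0.20, between 0.13 and 0.30 above all genes under the alternatives. Kl, the anti-ageing hormone Klotho, was at 7.18, 7.28, 7.26 and 6.92 in mutants and 6.78, 6.72, 6.95 and 6.63 in wildtype brains. Its groups overlapped through mutant 4, with a difference of 0.39. The tight-junction gene Cldn2 differed by 0.43, the folate receptor gene Folr1 by 0.41 and the secreted antagonist gene Sostdc1 by 0.34, and 4 of 17 members had an unadjusted p under 0.05. Ttr, the thyroid hormone carrier of the plexus and the brightest member, differed by 0.155. In mutants the mean of the list was 6.94, 6.91, 6.83 and 6.68, against 6.63, 6.73, 6.69 and 6.53 in wildtype brains, so mutant 4 lay among the wildtype animals. The 5 measured olfactory bulb genes had a median of 0.21, with 4 of 5 above 0, Doc2g at 0.43, Cdhr1 at 0.30, Meis2 at 0.21 (the 1 with an unadjusted p under 0.05) and a mean level that overlapped between groups (7.24 to 7.74 in mutants, 7.16 to 7.53 in wildtype brains). Relative to all genes this median was between 0.03, with array brightness as a covariate, and 0.30.

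Of 16 measured genes of cortical and hippocampal excitatory neurons 13 lay below 0 and 3 above, with 0 past the adjusted threshold and a median of -0.18, which remained between -0.19 and -0.14 relative to all genes under the alternatives. Camk2a, the alpha subunit of a synaptic calcium-dependent kinase, read 11.48, 11.39, 11.43 and 11.23 in mutants and 11.63, 11.69, 11.68 and 11.57 in wildtype brains, a difference of -0.26. Slc17a7, the vesicular glutamate transporter of cortical neurons, stood at 11.67, 11.77, 11.75 and 11.38 in mutants and 12.05, 12.24, 11.94 and 11.79 in wildtype brains, a difference of -0.36. Both had every mutant below every wildtype animal. Fibcd1, a marker of hippocampal CA1, differed by -0.24, Bcl11b, a factor of deep-layer cortex, by -0.23 and Mef2c by -0.22, so 5 of 16 genes were lower and 0 higher at an unadjusted p under 0.05. Lmo4, the brightest member, differed by -0.0045. The mean of the list was 9.20, 9.20, 9.20 and 9.21 in mutants, against 9.40, 9.34, 9.32 and 9.30 in wildtype brains. The 4 mutants were close together and all below the wildtype animals. Etv1, a marker of cortical layer 5 that is not in this list, was higher, as given above.

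**Figure D4:**
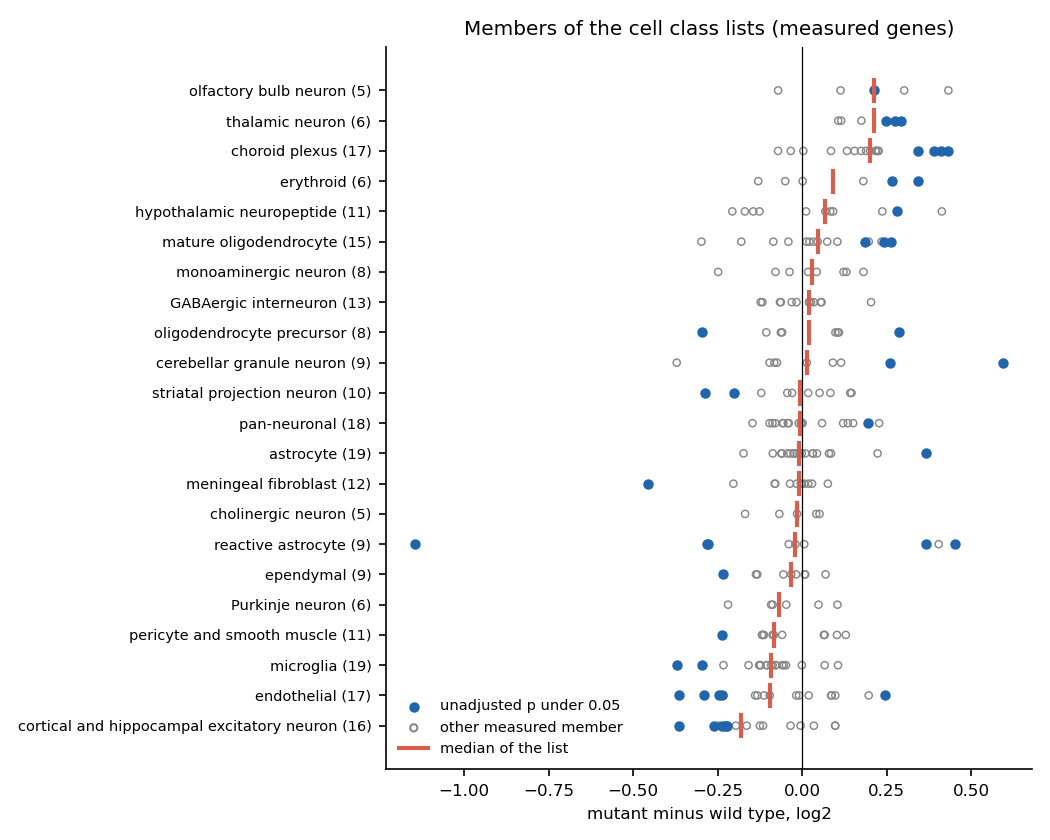
Mutant minus wildtype difference on the log2 scale (x axis) of each measured gene of 22 cell class lists (y axis, number measured in parentheses, the 3 pituitary genes left out), with members at an unadjusted p under 0.05 filled and the list median as a bar. Olfactory bulb, thalamic and choroid plexus genes have medians of 0.20 to 0.21, and excitatory neuron genes have a median of -0.18.

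Microglia genes lay below 0 in 17 of 19 measured members, with a median of -0.09. Tyrobp, a signalling adaptor of myeloid cells, read 6.02, 5.87, 6.08 and 6.07 in mutants and 6.36, 6.29, 6.22 and 6.65 in wildtype brains, a difference of -0.37. Cd14, a co-receptor for lipopolysaccharide, differed by -0.30. These 2 had an unadjusted p under 0.05, and Irf8 (-0.23), Gpr34 (-0.16) and the brightest member Laptm5 (-0.10) did not. The list mean was 7.01 to 7.18 in mutants and 7.12 to 7.28 in wildtype brains, and the groups overlapped. Relative to all genes its median stayed between -0.11 and -0.04 under the alternatives.

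Endothelial genes were mixed, with 11 of 17 below 0 and a median of -0.10. Relative to all genes it was -0.08, and between -0.12 without wildtype animal 1 and -0.03 without wildtype animal 4. Ptprb, the vascular endothelial phosphatase, was at 7.28, 7.16, 7.29 and 7.56 in mutants and 7.77, 7.57, 7.71 and 7.70 in wildtype brains. Sox18 (-0.29), Emcn (-0.25) and the angiopoietin receptor gene Tek (-0.24) were also lower at an unadjusted p under 0.05, while Slco1a4, a transporter of the blood-brain barrier, was higher by 0.24. Slc2a1, the barrier's glucose transporter and the brightest member, differed by 0.20. The mean of the list was 7.67 to 7.75 in mutants and 7.75 to 7.81 in wildtype brains without overlap, a gap smaller than the range of either group. Among pericyte and smooth muscle genes 7 of 11 lay below 0 (median -0.08), and Notch3 differed by -0.24. Of 12 meningeal fibroblast genes 8 lay below 0 (median -0.01), with Col1a1 at -0.46, and their list mean was 6.88 to 6.92 in mutants against 6.93 to 6.97 in wildtype brains.

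**Figure D5:**
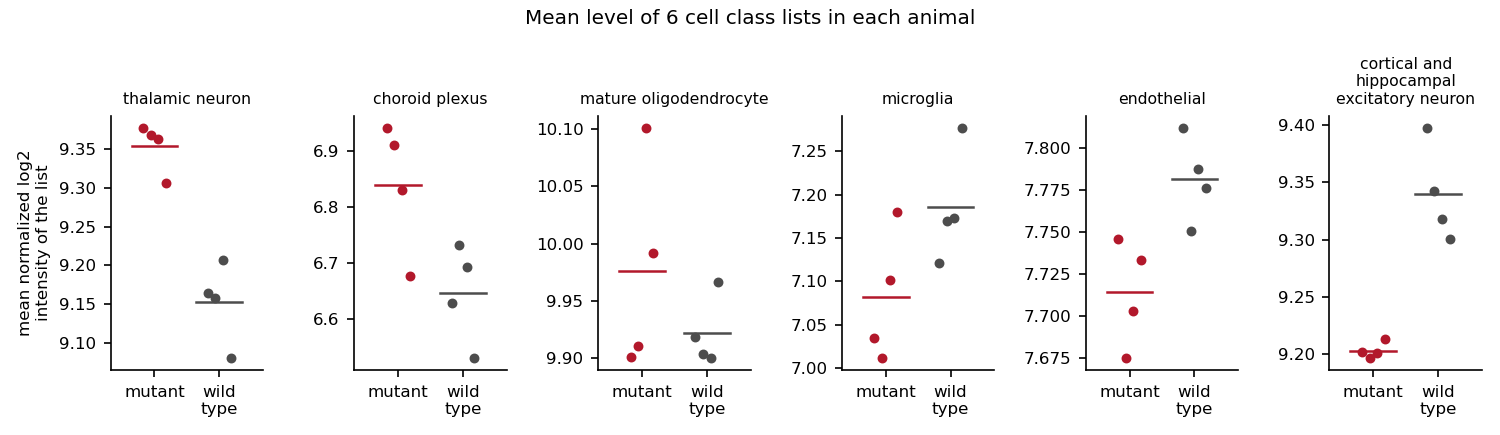
Mean normalized log2 intensity (y axes) of the measured genes of 6 cell class lists in each of 4 Smc6 mutants (red, left) and 4 wildtype brains (grey, right), with group means as bars. The groups separate for the thalamic, endothelial and excitatory neuron lists and overlap for choroid plexus, oligodendrocytes and microglia.

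Myelin genes were read higher on some probes. Of 15 measured genes of mature oligodendrocytes 11 lay above 0, with a median of 0.05, or 0.06 above all genes (0.03 to 0.09 under the alternatives). Mog, a surface protein of myelin, differed by 0.26, Mobp by 0.24 and Mal by 0.19, and these 3 were the members at an unadjusted p under 0.05. Mog read 9.54, 9.65, 9.85 and 9.68 in mutants and 9.34, 9.44, 9.36 and 9.55 in wildtype brains, so that mutant 1 lay below wildtype animal 4. Opalin differed the other way, by -0.30, and Mbp, the brightest member, by 0.01. The 3 Mobp probes disagreed in sign, at 0.24, 0.37 and -0.20. Precursor genes had 4 members above and 4 below 0, with Cspg4, the NG2 proteoglycan, at 0.29 and Tnr, detected in 1 mutant and 4 wildtype brains, at -0.30. Tnr thus met the detection rule through the wildtype group, and its difference is no support for a decrease.

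Astrocyte genes showed no common shift, with 8 of 19 above 0 and a median of -0.01. Gfap, the intermediate filament protein that rises in reactive astrocytes, was the member with an unadjusted p under 0.05. It stood at 7.55, 7.28, 7.39 and 7.25 in mutants and 6.82, 7.15, 7.02 and 7.02 in wildtype brains, a difference of 0.37 without overlap. Vim, a second intermediate filament, read 7.93, 7.87, 8.09 and 7.82 in mutants and 7.24, 7.64, 7.44 and 7.57 in wildtype brains, a difference of 0.45 without overlap. Other reactive astrocyte genes differed downward, with Cd44 at -0.28 and Osmr at -0.28. Lcn2 differed by -1.14, with mutants at 4.63 to 5.07 and wildtype brains spread over 4.46, 6.67, 5.30 and 7.46. Serpina3n, the brightest of the list, differed by -0.02. In all, 4 of the 9 measured reactive astrocyte genes lay above 0 and 5 below.

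The remaining classes had medians within 0.10 of 0, with the exception of the pituitary list. GABAergic interneuron genes had none of 13 members at an unadjusted p under 0.05 (median 0.02), and Pvalb, the brightest, differed by -0.02. Striatal genes had 2 of 10, Drd2 (-0.20) and Pde10a (-0.29). Cerebellar granule genes had 2 of 9, Gabra6 (0.59), a receptor subunit of granule cells, and Neurod1 (0.26). Gabra6 read 5.93, 6.56, 6.40 and 6.35 in mutants and 5.78, 5.50, 5.68 and 5.90 in wildtype brains, and with array brightness as a covariate its difference was -0.0012. General neuronal genes had 1 of 18, the secretory granule gene Scg2 (0.19), and hypothalamic genes 1 of 11, Pmch (0.28), the precursor of melanin-concentrating hormone. Ependymal genes had 1 of 9, the ciliogenesis factor gene Foxj1 (-0.23), and Purkinje, monoaminergic and cholinergic genes had 0 of 6, 8 and 5. Erythroid genes had 2 of 6, with Hba-a1, an alpha globin, at 13.24, 13.63, 13.50 and 13.49 in mutants and 13.23, 13.22, 12.89 and 13.15 in wildtype brains. The pituitary hormone gene Gh varied widely between animals of both groups, at 13.09, 7.19, 4.49 and 12.43 in mutants and 4.31, 9.50, 13.88 and 10.86 in wildtype brains.

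Of 17 measured glucocorticoid-induced genes 13 lay above 0 and the median was 0.13, or 0.14 above all genes. It was 0.04 above all genes without wildtype animal 3 and 0.27 above them without wildtype animal 1. Without wildtype animal 3 the unfolded protein response (0.11) and heat shock (0.10) medians lay further above all genes. Cdkn1a, an inhibitor of cyclin-dependent kinases, read 8.93, 8.77, 8.72 and 8.87 in mutants and 8.50, 8.17, 8.34 and 8.31 in wildtype brains, a difference of 0.49 with an adjusted p of 0.0769. Sgk1 differed by 0.52, Ddit4 by 0.32, Tsc22d3 on its brightest probe by 0.26 and Pdk4 by 0.24. With Errfi1, 6 of 17 were higher at an unadjusted p under 0.05. Sgk1, a serum- and glucocorticoid-regulated kinase, stood at 12.50, 12.23, 12.33 and 12.02 in mutants and 12.41, 11.64, 11.13 and 11.84 in wildtype brains, so wildtype animal 1 was among the mutants. The list mean was 9.17 to 9.32 in mutants and 8.89 to 9.35 in wildtype brains, with that animal the highest of all 8. Circadian clock genes had 0 of 14 members and immediate early genes 0 of 17 at an unadjusted p under 0.05.

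Stress response genes differed gene by gene. Nfe2l2, the regulator of the antioxidant response, read 5.20, 5.55, 5.35 and 5.20 in mutants and 4.63, 4.83, 4.69 and 4.91 in wildtype brains, a difference of 0.56 with an adjusted p of 0.0769. Nfe2l2 was detected in 4 mutants and 1 wildtype brain. It met the detection rule through the group where it was high, so its difference is no support for an increase. With Nfe2l2 counted, and with Gpx1 (0.22) and the metallothionein gene Mt3 (0.28), 3 of 18 oxidative stress genes were higher at an unadjusted p under 0.05. The list mean, which includes Nfe2l2, was 8.73 to 8.77 in mutants and did not overlap with 8.65 to 8.68 in wildtype brains. A mean without Nfe2l2 was not computed, so this separation is no support for an increase either. The list median was 0.05, and 0.02 to 0.08 above all genes under the alternatives. Among heat shock genes 14 of 21 lay above 0, with Cryab at 0.25 and Hspa4, detected in 1 mutant and 4 wildtype brains, at -0.25. Hspa4 thus met the detection rule through the wildtype group, and its difference is no support for a decrease. In the unfolded protein response list Atf4 (0.35) and Dnajc3 (0.22) were higher and Asns, read by its brightest probe, lower (-0.19).

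DNA damage genes showed little. Of 17 measured DNA break repair and checkpoint genes 12 lay below 0 (median -0.07), 0 had an unadjusted p under 0.05, and Rad51d (0.18) and Rad50 (-0.15) came first. Rad51d had a difference of -0.10 with array brightness as a covariate. The list mean was 6.55 to 6.61 in mutants, against 6.63 to 6.67 in wildtype brains. Of 21 measured p53 target genes 9 lay above 0 and 12 below, and the 2 higher at an unadjusted p under 0.05 were Cdkn1a and Ddit4, which are also in the glucocorticoid list. Of 25 cell division genes 10 were measured, 0 of them at that p, with Mcm5 at -0.16. Cohesin and condensin genes had 0 of 11, adult neurogenesis genes 1 of 9 (Neurod1) and interferon-stimulated genes 0 of 18.

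Among neuronal signalling genes, 5 of 43 measured voltage-gated and potassium channel genes were lower and 3 higher at an unadjusted p under 0.05, and 27 lay below 0. Kcnh1, an ether-a-go-go channel, read 8.13, 8.34, 8.49 and 8.34 in mutants and 8.71, 9.03, 8.63 and 8.94 in wildtype brains, a difference of -0.50 without overlap. Scn1a, a sodium channel of interneurons, differed by -0.30, and the inward rectifier Kcnj3 by 0.24. Glutamate and GABA receptor genes had 3 higher and 4 lower of 18. Gabra6 and Gabrb2 (0.39) were higher, and the kainate receptor genes Grik5 (-0.31) and Grik1 (-0.29) lower. In the synaptic vesicle list, the endocytic dynamin gene Dnm1 differed by 0.62 and Cltb by 0.27, while Sh3gl3, a relative of Sh3gl2, differed by -0.33. Of 13 measured Notch pathway genes 2 were lower, Hes5 on its brighter probe (-0.39) and Notch3.

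Housekeeping lists shifted little. Cytosolic ribosomal protein genes lay above 0 in 38 of 55 and respiratory chain genes in 43 of 68, with medians of 0.04 and 0.03. Rps13 (0.27), Rpl7a (0.23), Atp5pb (0.32) and Atp5o (0.26) led them. Proteasome genes had 13 of 30 above 0, with Psmd8 at -0.36 and Psmd5 at 0.31. Actin branching genes had Pfn1 at 0.21, and cholesterol synthesis genes had Dhcr7 at -0.24, or 0.13 with array brightness as a covariate.

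The difference between mutants and controls in brain was tested against that in testis and in spleen across all 24 arrays. Testis and spleen came from other mice, 4 mutants and 4 controls aged 12 weeks, so tissue and age cannot be told apart. The identifiers of 2 of these 4 controls carried a heterozygous sign, although the genotype label was wildtype. In each contrast 2 of 14027 probes passed (0.0143%). Etv1 ILMN_2643915 differed by 0.77 in brain, against -0.15 in testis and 0.05 in spleen. Etv1 was detected on 1 of the 8 testis arrays and on 0 spleen arrays, so a difference between genotypes could hardly be read there. Its contrasts of 0.92 ± 0.120 with testis (adjusted p = 0.000728) and 0.72 ± 0.120 with spleen (adjusted p = 0.0335) therefore restate the brain difference and show no difference in response between tissues. Rgs6, a regulator of G protein signalling, differed by -0.14 in brain and by 0.60 in testis, a contrast of -0.74 (adjusted p = 0.0156). Tyrobp differed by -0.37 in brain and by 0.39 in spleen, a contrast of -0.76 (adjusted p = 0.0335). Tyrobp was detected on 8 spleen and 0 testis arrays, and Rgs6 on 7 testis and 0 spleen arrays. With each of the 24 arrays left out in turn, the Etv1 contrast with spleen passed in 11 of 24 fits (adjusted p 0.0246 to 0.133). In all other fits 0 probes passed against spleen, Tyrobp included, and in some of the 11 only Etv1 passed. Against testis Etv1 passed in all 24 fits, and in some of them it was the only 1, so Rgs6 dropped out there. The Sh3gl2 probe that rose in brain exceeded testis by 0.81 (adjusted p = 0.144), and neither the Mbp nor the Tsc22d3 probe passed in either contrast.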

How the data were processed

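RNA from 24 samples had been measured on Illumina MouseRef-8 arrays, and the 8 brain arrays were used, with testis and spleen for the contrast between tissues. Per the file headers, the authors' main table pairs every intensity with a detection p-value. The deposited intensities are linear and background-subtracted, with negative values, and not normalized between arrays. GenomeStudio 2011.1 is named in the submitters' processing notes. A second table deposited by the authors holds normalized intensities on a linear scale (array medians 24 to 24.2), made by an unstated method, and served as an alternative. The platform annotation gave 1 symbol to 23978 of 25697 probes, several to 0 and none to 1719.

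Intensities were corrected and quantile-normalized by neqc, which estimates background from the detection p and adds an offset of 16, and expressed as log2. Probes detected on 4 of 8 arrays were fitted with limma 3.58.1 in R 4.3.3, mutant minus control, with no covariate, and p-values were adjusted by the Benjamini-Hochberg method over 14027 probes. A gene was read by its kept probe with the highest mean. The contrasts between tissues normalized each tissue on its own and took the animal as a random block. The scripts were tested on simulated data. The number of arrays limits the precision. Slides and scan dates are not given in the sources used here, so batches were not tested.

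Genes named were every Smc6 probe, every probe past the threshold with the other probes of its gene, the 15 higher and 15 lower probes with the smallest p, up to 4 members per list with the smallest p, the brightest member of cell class lists, the 4 neighbours of Smc6 with the smallest p and the probes past the threshold between tissues. Mef2c, Lcn2, Opalin, Pdk4, Errfi1, Slco1a4, Tnnt1, Cyria and Twistnb were named after their values were seen. The members and lists were chosen with earlier results of these data known, so no test of a list is given. Alternatives covered background correction, normalization, the filter on dim probes, weights, array brightness, a replicate block and leaving out each animal.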

Additional observations from a re-analysis of the deposited data

Results flagged for a closer look

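Dixon's test at the 95% level was applied to the 4 animals of each group for 340 sets of values. Of these, 23 (6.76%) held an animal far from the others. Chance gives about 1 in 20 for unselected, independent sets. Many of these sets were probes chosen by small p or lists sharing such probes, so the 2 shares cannot be compared. Mutant 4 was low for Tsc22d3 probe ILMN_2701664 at 7.18 (other mutants 7.67 to 7.72), for Sostdc1 at 6.27 (6.61 to 6.66) and for Tcf7l2 at 8.84 (9.13 to 9.15). It was high for Srr at 8.25 (8.19) and for the mean of the respiratory chain genes at 11.1 (10.99 to 11.0). Mutant 3 was low for Def6 at 4.84 (5.06 to 5.1). It was high for Ddit4 at 9.76 (9.32 to 9.35), for Rgs6 at 6.21 (6.03 to 6.06), and for the means of the cerebellar granule genes at 8.08 (7.85 to 7.87) and of the pericyte genes at 6.59 (6.45 to 6.47). Mutant 1 was high for Mt3 at 12.44 (12.23 to 12.25), low for the mean of the erythroid genes at 6.61 (6.78 to 6.81) and highest in median deposited intensity at 16.7 (15.4 to 15.6). Mutant 2 was low for the mean of the DNA break repair genes at 6.55 (6.61).

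Among wildtype brains, animal 1 was high for Gpat4 probe ILMN_2918402 at 6.19 (5.99 to 6.01) and for Hes5 probe ILMN_1253414 at 6.85 (6.6 to 6.64). Animal 2 was high for Arpc5 probe ILMN_1244135 at 6.97 (6.81 to 6.84). Animal 3 was high for Tek at 7.39 (7.06 to 7.1), low for Mcm5 at 6.83 (7.02 to 7.06), and low for the means of the meningeal genes at 6.93 (6.97) and the erythroid genes at 6.55 (6.67 to 6.69). Animal 4 was low for Prkcd at 8.67 (9.05 to 9.08) and high for the mean of the ependymal genes at 6.32 (6.19 to 6.21).

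The contrast of the differences between tissues passed for 3 genes by limma, as adjusted over 14027 probes. The Etv1 contrasts were 0.92 for brain minus testis and 0.72 for brain minus spleen, but the probe was detected on 1 of 8 testis and 0 spleen arrays, so these restate the brain difference. Rgs6 stood at -0.74 for brain minus testis and Tyrobp at -0.76 for brain minus spleen. Neither passed in every fit that left out 1 array.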

How the results depend on the processing

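The count of probes past the threshold, 4 in the main setting, depended on the processing. It was 64 by normexp with an offset of 50, 66 with an intensity trend in the prior variance, 32 with all 24 arrays normalized together, 50 with all 24 arrays in 1 fit (2 shared with the 4), 16 with probes detected on all 8 arrays and 11 with array quality weights. It was 1 in the deposited normalized table (lower in mutants, 0 shared) and 0 by median centring, with no filter on dim probes, with array brightness as a covariate and in a refit on 1 probe per gene by limma, where 3287, 2401, 814 and 1040 probes had an unadjusted p under 0.05. Of the 3287, 442 were higher and 2845 lower, against 894 and 766 in the main setting. Leaving out 1 animal gave 0 to 3 probes past the threshold and 1362 to 1985 at an unadjusted p under 0.05. The Etv1 and Sh3gl2 probes passed in 6 and the Mbp and Tsc22d3 probes in 5 of the 11 alternatives that kept all animals and tested these probes.

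With the replicate block 0 probes passed by limma (smallest adjusted p 0.114) and 1887 had an unadjusted p under 0.05. Same-numbered mutant and wildtype animals had correlations of deviations of -0.08, 0.13, -0.15 and 0.28. On the first principal component, with 23% of the variance, mutant 4 (13.2) and wildtype animal 4 (13.8) lay above all others. Whether same-numbered animals shared more than a number was not tested.

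By median centring the brightest Mbp and Sh3gl2 probes were at -0.0428 and -0.0712, and the median of the neighbours of Smc6 at -0.0801. With array brightness as a covariate, Gabra6 was at -0.0012, Dhcr7 at 0.132, Psmd2 at -0.0273, Rad51d at -0.0984 and Gh at 2.4638. Leaving out 1 animal turned the sign of Gh (range -2.1079 to 1.2674), of Smc6 (-0.0837 to 0.0211), of Mbp ILMN_2737200 (-0.0091 to 0.0331) and of Sh3gl2 ILMN_1251416 (-0.0218 to 0.0373). The contrasts between tissues gave 2 and 2 probes without the animal block. Leaving out 1 of 24 arrays, like the fit without that block an alternative chosen after seeing the data, gave 1 to 4 for brain minus testis and 0 to 3 for brain minus spleen. The cause of these changes was not tested.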

Other observations

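The genes below were chosen after their values were seen. Ramp3, a partner protein of calcitonin family receptors, was higher on each of its 3 kept probes, by 0.42, 0.47 and 0.46, with unadjusted p under 0.05. Pde1a, a calcium-dependent phosphodiesterase, was lower on each of 3, by -0.36, -0.36 and -0.29. Eipr1, on chromosome 12 with Smc6, was higher by 0.42 to 0.58 on 4 dimmer probes and by 0.14 on its brightest. Twistnb, also on that chromosome, differed by 1.32 on probe ILMN_1231779 and by 1.41 on ILMN_2466121. Neither passed in the main fit, and ILMN_1231779 was not detected in all 8 brains.

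Erdr1 had one of the largest differences of all, 1.78, with levels of 10.88, 11.46, 9.66 and 9.39 in mutants and 8.25, 8.26, 9.10 and 8.66 in wildtype brains (adjusted p = 0.131 by limma). Fgfr1op2 probe ILMN_2615468 read 9.43, 9.12, 5.61 and 6.14 in mutants and 9.08, 9.02, 10.09 and 9.29 in wildtype brains, so that 2 of 4 mutants were low, while its other probe differed by 0.34. Actb, the cytoskeletal actin gene, was low in mutant 4 on 3 of 5 probes. Probe ILMN_1377923 of Actb read 11.64, 11.98, 11.52 and 9.56 in mutants and 11.90, 12.27, 11.97 and 12.07 in wildtype brains, and the brightest Actb probe read 12.33 to 12.71 in mutants and 12.55 to 12.72 in wildtype brains.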
